A study of Homo sapiens with 28 samples.

Results

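SLC2A1, SLC2A3 and HK2 carry out the first steps by which a cell takes in and keeps glucose, and they are 3 of the 7485 gene entries in the authors' deposited table. They were picked by gene symbol with their values in total and labelled RNA already known. Those values are therefore given here as a description, with no test. Jurkat cells, an established human T cell leukaemia line grown in RPMI1640, had received 0.5 µg/ml of the phorbol ester PMA together with 2 µg/ml of the lectin phytohaemagglutinin (PHA). RNA was taken 1, 2, 3 and 4 h later and from unactivated cells, which are called 0 h below. Total RNA and RNA labelled with 4-thiouridine (4sU), a uridine analogue that enters newly made transcripts, were sequenced from 28 samples in 10 groups. Each group held 3 biological replicates, per the labels, except the 1 h groups of both kinds of RNA, which held 2. A transformed line of this kind stands for T cells only in part, and PMA and PHA bypass antigen.

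SLC2A1 encodes the glucose transporter GLUT1 and SLC2A3 the high-affinity transporter GLUT3, both of which let glucose move down its gradient through the plasma membrane. HK2 encodes hexokinase 2, which traps the sugar inside the cell as glucose 6-phosphate and can sit on the outer mitochondrial membrane. Activated T cells are known for raising glucose uptake and glycolysis before they divide, and the transporters and hexokinase 2 are textbook targets of MYC, HIF-1 and AKT signalling. HuR, the product of ELAVL1, is an RNA-binding protein that binds U-rich and AU-rich stretches of 3′ untranslated regions (3′UTRs) and often stabilises the mRNA.

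On GRCh38 (GENCODE v29), SLC2A1 (ENSG00000117394) lies on the minus strand at chr1:42925375-42959176, SLC2A3 (ENSG00000059804) on the minus strand at chr12:7919230-7936275 and HK2 (ENSG00000159399) on the plus strand at chr2:74833981-74893359. The authors' own build was hg19, so these positions come from the annotation and not from the deposited table. SLC2A3 has a near-identical paralogue, SLC2A14, and 3 processed pseudogenes in the annotation, and HK2 has 1, so the authors' counting could have split or dropped some of their reads. The 5′ end of SLC2A1 overlaps SLC2A1-AS1 on the other strand, and no source used here says whether the counting used strand.

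The 3′UTRs are shown first because the study followed mRNA stability and HuR. In the annotated 3′UTRs, of 1666 bases in SLC2A1, 2183 in SLC2A3 and 2418 in HK2, the AU-rich pentamer ATTTA occurred 1, 3 and 5 times in that order, and at least 1 copy stood in 79.6% of 7040 genes with such a region. A run of 7 T, TTTTTTT with overlapping matches counted, occurred 1, 8 and 13 times, against 57.3% of genes with any. Per kb of 3′UTR the pentamer came to 0.600 in SLC2A1, 1.37 in SLC2A3 and 2.07 in HK2, all below the median gene at 2.12. The T runs came to 0.600 per kb in SLC2A1, 3.66 in SLC2A3 and 5.38 in HK2, where the median gene had 0.702. The nonamer TTATTTATT occurred once in SLC2A3 and in neither of the other genes, and 10.1% of genes had it. The 30-base stretches below are written as DNA on the strand of the mRNA. The first 3 hold the most ATTTA and the last 3 the longest match to the T run in each 3′UTR, with the matched letters in capitals.
SLC2A1, GRCh38 chr1:42926275-42926304, minus strand: tatagatgcaagatATTTAtatatattttt
SLC2A3, GRCh38 chr12:7920933-7920962, minus strand: gcaaattaacttgagttttATTTAttttat
HK2, GRCh38 chr2:74891721-74891750, plus strand: cattttaATTTAtatttgaaattttATTTA
SLC2A1, GRCh38 chr1:42926785-42926814, minus strand: ttttataaTTTTTTTattactgattttgtt
SLC2A3, GRCh38 chr12:7920896-7920925, minus strand: tttaattacataaTTTTTTTTTTTTaactt
HK2, GRCh38 chr2:74893022-74893051, plus strand: tgaagttacacTTTTTTTTTTTTTTTTaaa
The ATTTA of SLC2A3 shown here is the centre of its nonamer. The longest T run shown is that of HK2 and the shortest that of SLC2A1. A match is a property of the letters and not a measured binding site.

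The promoters were searched because MYC and HIF-1 bind short words there. RefSeq windows on GRCh38.p14, from 250 bases before to 50 after a transcript start, were found for 2 of the 3 genes, SLC2A1 and HK2. The word CACGTG, the palindromic E-box to which MYC binds with MAX, occurred 2 times in the second HK2 window, in neither the first HK2 window nor that of SLC2A1, and in 7.26% of 35116 windows. The hypoxia core words ACGTG and GCGTG, searched on both strands, occurred in 21.4% and 36.5% of windows, and an E-box counts as ACGTG on each strand. SLC2A1 had no ACGTG and 1 GCGTG, the first HK2 window had 2 and 1, and the second had 4 and 2. The stretches with these E-boxes and the GCGTG of SLC2A1 are shown with the word in capitals.
HK2, GRCh38.p14 chr2:74834964-74834993, plus strand: gattgctgcgccCACGTGggagggagcccc
HK2, GRCh38.p14 chr2:74835009-74835038, plus strand: ttccggcgagagCACGTGgagagaatcgtg
SLC2A1, GRCh38.p14 chr1:42958826-42958855, minus strand: tagcaacagcgaGCGTGccggtcgctagtc
These letters describe the windows and say nothing of what binds there in these cells.

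Values below are the authors' means with their deposited SD on a normalised, per-million-like scale. With 3 samples no value can lie further than 1.15 SD from its mean, and with 2 samples both lie 0.707 SD from it. From this bound it follows for some pairs of groups that no sample of one can overlap the other. In bulk RNA, fewer cells with a transcript and less of it per cell cannot be told apart. Log2 changes are on the log2(value + 1) scale. Their SE is limma's, from the spread pooled within total or within labelled RNA and moderated toward genes of similar level. It is therefore not the replicate spread of the gene alone, which the deposited SDs give.

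SLC2A3 lay above its own unactivated level at every hour after activation, in both kinds of RNA. Its total RNA had 4.76 ± 0.880 at 0 h, 10.7 ± 2.20 at 1 h, 21.2 ± 0.768 at 2 h, 29.4 ± 0.636 at 3 h and 42.2 ± 3.68 at 4 h (SD, n = 3, or 2 at 1 h). The samples of every hour lay above all those of the hour before. At 1 h the 2 samples had 9.14 and 12.3, which stand for 101 and 137 reads, so the lowest levels here rest on few reads. The total level at 4 h was 8.87-fold that of unactivated cells, a log2 change of 2.91 ± 0.13, which was the 8th highest of the 7485 entries. The earlier log2 changes in total RNA were 1.02 ± 0.15 at 1 h, 1.95 ± 0.13 at 2 h and 2.40 ± 0.13 at 3 h.

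Labelled SLC2A3 had 18.7 ± 9.10 at 0 h, 43.7 ± 5.72 at 1 h, 42.8 ± 5.0 at 2 h, 74.1 ± 4.92 at 3 h and 101 ± 7.91 at 4 h. The samples lay above those of the hour before at 1, 3 and 4 h, with a plateau between 1 and 2 h where they may overlap. Every activated sample lay above the unactivated ones. The log2 change in labelled RNA was 1.18 ± 0.25 at 1 h, 1.15 ± 0.22 at 2 h, 1.93 ± 0.22 at 3 h and 2.37 ± 0.22 at 4 h, the last being the 20th highest. The unactivated labelled samples spread widely, with an SD of 9.10 on a mean of 18.7, so the folds against them are less precise than those in total RNA.

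SLC2A1, the other transporter, was first slightly higher and then much lower. Its total RNA had 50.1 ± 7.46 at 0 h, 59.3 ± 6.84 at 1 h, 67.6 ± 2.96 at 2 h, 26.4 ± 3.28 at 3 h and 13.4 ± 3.58 at 4 h. The 1 h samples, 54.5 and 64.1, may overlap those of unactivated cells, while the 2 h samples lay above them and the 3 and 4 h samples below. The log2 change in total RNA was 0.24 ± 0.17 at 1 h, 0.43 ± 0.15 at 2 h, -0.90 ± 0.15 at 3 h and -1.83 ± 0.15 at 4 h, the last being the 11th lowest of all entries.

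Labelled SLC2A1 was lower an hour before the total RNA was. It had 130 ± 51.7 at 0 h, 124 ± 9.48 at 1 h, 42.4 ± 9.98 at 2 h, 14.1 ± 1.60 at 3 h and 24.3 ± 6.24 at 4 h. Samples at 2, 3 and 4 h lay below all unactivated samples, and those at 1 h may overlap them. The log2 change in labelled RNA was -0.07 ± 0.26 at 1 h, -1.59 ± 0.23 at 2 h, -3.11 ± 0.23 at 3 h and -2.37 ± 0.23 at 4 h. The value at 3 h was the 3rd lowest of all entries and that at 4 h the 7th lowest. The labelled level at 4 h was 1.72-fold that at 3 h with no overlap of samples, while the total level at 4 h was below that at 3 h.

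HK2 lay above its unactivated total level at 1, 2 and 3 h and below it at 4 h. Its total level was 130 ± 2.63 at 0 h, 145 ± 7.41 at 1 h, 174 ± 5.58 at 2 h, 173 ± 26.4 at 3 h and 93.1 ± 9.33 at 4 h. Samples at 1, 2 and 3 h lay above those of unactivated cells, with 139 and 150 at 1 h, and samples at 4 h lay below. The log2 change in total RNA was 0.16 ± 0.11, 0.42 ± 0.10 and 0.42 ± 0.10 at 1, 2 and 3 h, and -0.47 ± 0.10 at 4 h. Its log2 change at 4 h was the 544th lowest, so its place there was much less extreme than that of either transporter.

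Labelled HK2 had 151 ± 6.53 at 0 h, 178 ± 20.4 at 1 h, 107 ± 18.3 at 2 h, 41.2 ± 2.92 at 3 h and 31.5 ± 2.92 at 4 h. From 1 h on every step was downward with no overlap between neighbouring hours. The log2 change in labelled RNA was 0.23 ± 0.19 at 1 h, -0.50 ± 0.17 at 2 h, -1.85 ± 0.17 at 3 h and -2.23 ± 0.17 at 4 h, the last being the 10th lowest of all entries.

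**Figure D1:**
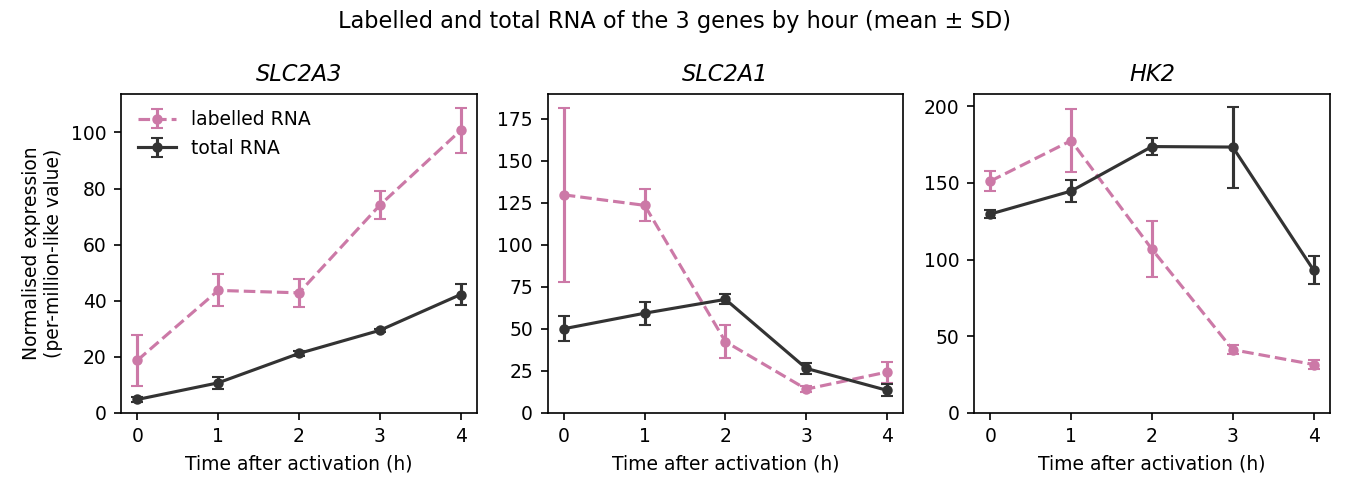
Each panel plots one gene, with hours after activation on the x axis (0 h being unactivated cells) and the authors' normalised value on the y axis. Points are means and bars SDs (n = 3, or 2 at 1 h) of labelled (dashed) and total RNA (solid): both lines of SLC2A3 end at their highest, 101 and 42.2, while at 2 h SLC2A1 had 42.4 in labelled and 67.6 in total RNA and HK2 had 107 in labelled and 174 in total RNA.

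Against unactivated cells, total RNA samples could not overlap for 2 of the 3 genes at 1 h and for all 3 at 2, 3 and 4 h. The same held for 21.3%, 29%, 29.9% and 41.7% of all entries at 1, 2, 3 and 4 h. In labelled RNA it held for 2 of the 3 at 1 h and for all 3 later, against 23.2%, 22.5%, 27.7% and 27.2% of all entries. Because these genes were chosen with their changes known, the comparison with the other entries is no support for them. A higher total level together with a lower labelled level, both without overlap, was seen at 2 h for SLC2A1 and HK2, and for 0.281% of all entries, which is 21. At 3 h it was seen for HK2, and for 0.107% of all entries, which is 8.

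The balance of the transporters was read per kb of transcript, using the annotated lengths of 3915 bases for SLC2A3 and 3670 for SLC2A1. In total RNA SLC2A3 and SLC2A1 had 1.22 and 13.6 per kb at 0 h, 2.73 and 16.2 at 1 h, 5.41 and 18.4 at 2 h, 7.52 and 7.20 at 3 h and 10.8 and 3.65 at 4 h. SLC2A3 thus made up 8.18% ± 1.79 of their sum at 0 h, 14.5% ± 2.92 at 1 h, 22.7% ± 0.998 at 2 h, 51.1% ± 3.15 at 3 h and 74.7% ± 5.32 at 4 h (propagated SD). The order of the levels changed between 2 and 4 h, and at 3 h they did not differ beyond their spread. The summed level was 14.9 ± 2.05 per kb at 0 h, 18.9 ± 1.95 at 1 h, 23.8 ± 0.829 at 2 h, 14.7 ± 0.909 at 3 h and 14.4 ± 1.36 at 4 h, so that at 3 and 4 h it differed from the unactivated level by less than its SD.

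In labelled RNA the SLC2A3 share of the sum was 11.9% ± 6.60 at 0 h, 24.9% ± 2.84 at 1 h, 48.6% ± 6.57 at 2 h, 83.1% ± 1.84 at 3 h and 79.5% ± 4.37 at 4 h. The labelled levels of the transporters did not differ beyond their spread at 2 h, an hour earlier than the total levels. A deposited column in RPKM, a length-scaled density averaged by the authors over total RNA, gave 25.8 for SLC2A3, 52.2 for SLC2A1 and 27.1 for HK2. The sources used here do not give the gene lengths behind it. With the annotated lengths HK2 lay above SLC2A1 in total RNA at every hour, with 22.5 and 13.6 per kb at 0 h. The RPKM column orders them the other way, so levels per kb depend on the lengths used.

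**Figure D2:**
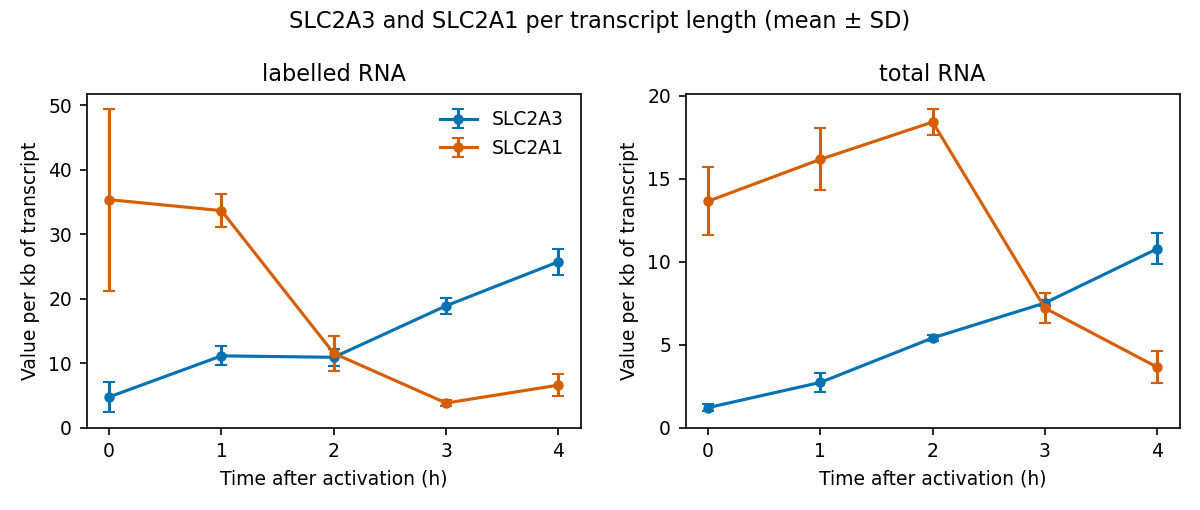
SLC2A3 and SLC2A1 are plotted as the mean value per kb of transcript (± SD, n = 3, or 2 at 1 h) against hours after activation, in labelled RNA (left) and total RNA (right). The lines meet near 2 h in labelled RNA, at 10.9 and 11.5 per kb, and near 3 h in total RNA, at 7.52 and 7.20.

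The labelled-to-total ratio sets newly made RNA against the standing pool. No source used here says how the authors scaled one against the other. The ratio is therefore read against the median of all genes, which ran from 1.05 to 1.12. With the factor of 0.266 found in the deposited decay rates below, labelled SLC2A3 would exceed its total at 0 and 1 h. Its ratios at those times are thus no share of new RNA. SLC2A3 had a ratio of 3.94 ± 2.05 at 0 h, 4.08 ± 0.996 at 1 h, 2.02 ± 0.247 at 2 h, 2.52 ± 0.176 at 3 h and 2.39 ± 0.280 at 4 h (propagated SD). It stayed above the median gene at each of the 5 times, and 98.3% of genes had a lower ratio in unactivated cells. SLC2A1 had 2.59 ± 1.10 at 0 h, 2.08 ± 0.289 at 1 h, 0.627 ± 0.150 at 2 h, 0.534 ± 0.0897 at 3 h and 1.81 ± 0.673 at 4 h. It lay above the median gene at 0 and 1 h, below it at 2 and 3 h and above it again at 4 h.

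HK2 started near the median gene, with a ratio of 1.17 ± 0.0556 at 0 h and 1.23 ± 0.154 at 1 h. It had 0.615 ± 0.107 at 2 h, 0.238 ± 0.0399 at 3 h and 0.339 ± 0.0462 at 4 h. At 3 h only 0.120% of genes had a lower ratio than HK2, and at 4 h 1.42%.

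**Figure D3:**
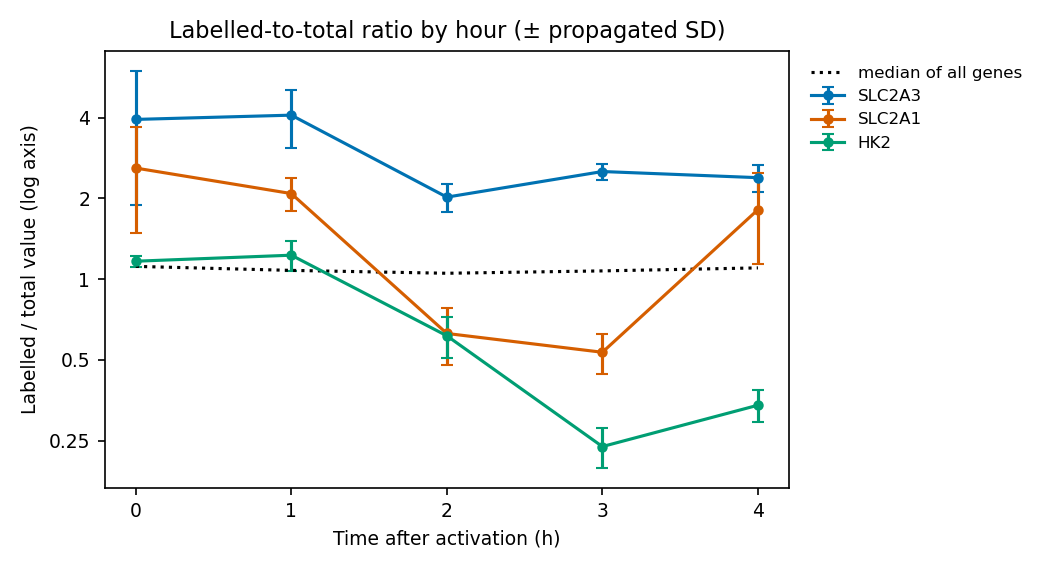
The labelled value divided by the total value (log axis) is plotted against hours after activation for the 3 genes, with propagated SDs from the group SDs, and the dotted line is the median of all genes. SLC2A3 lies above the line throughout (2.02 to 4.08), HK2 is lowest at 3 h with 0.238, and SLC2A1 is below the line at 2 and 3 h (0.627 and 0.534) and at 1.81 at 4 h.

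The authors' deposited table also gives a decay rate for each hour on a natural log scale, where a lower number stands for faster loss. Each deposited rate equals the natural log of total RNA, less 0.266 times labelled RNA, over the total RNA of the hour before (of the same hour at 0 h), so it is built from the means above and is no separate measurement. For HK2 the rate in the authors' deposited table was -0.371 ± 0.0213 at 0 h, -0.286 ± 0.0964 at 1 h, 0.00441 ± 0.0720 at 2 h, -0.0671 ± 0.165 at 3 h and -0.716 ± 0.188 at 4 h, while the median gene stayed between -0.359 and -0.291. By this formula a rate of 0 stands for no loss, and at 2 h 98.3% of the deposited rates were lower. The T score of the rate change in the authors' deposited table was 8.66 for HK2 at 2 h, the 4th highest of 7252, then 3.16 at 3 h and -3.16 at 4 h. On this measure the loss of HK2 was slower than in unactivated cells at 2 and 3 h and faster at 4 h.

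For SLC2A1 the authors' deposited table gave -1.17 ± 0.946 at 0 h, -0.638 ± 0.313 at 1 h, -0.0523 ± 0.135 at 2 h, -1.09 ± 0.153 at 3 h and -1.34 ± 0.584 at 4 h. Its loss was thus slowest at 2 h and faster than that of the median gene at the other 4 times, though the SD at 0 h was nearly as large as the rate and the T scores lay between -0.264 and 2.03. For SLC2A3 the authors' deposited table has no rate at 0 and 1 h, where the scaled labelled part exceeded the total. It gave -0.0873 ± 0.247 at 2 h, -0.778 ± 0.144 at 3 h and -0.647 ± 0.274 at 4 h. By this formula its loss at 3 and 4 h was faster than that of the median gene, at -0.359. Its total level at those hours was above that of unactivated cells. At 4 h 21.1% of the deposited rates were lower still, and SLC2A3 has no T score. The later rates rest on the same scaling that gave this gene no rate at 0 and 1 h.

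**Figure D4:**
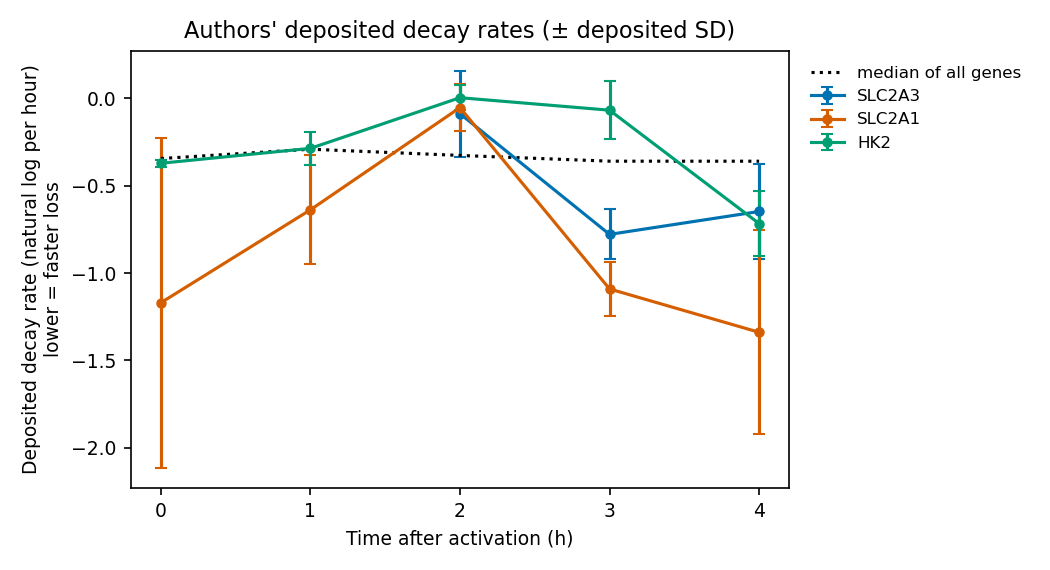
The authors' deposited decay rates (natural log per hour, with the deposited SD) are plotted against hours after activation, and the dotted line is the median of all genes. HK2 reaches 0.00441 at 2 h and -0.716 at 4 h, SLC2A1 peaks at -0.0523 at 2 h, and SLC2A3 has values from 2 h on only.

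The deposited table holds HuR calls and scores, which the rule for choosing the genes did not use, and no source used here says how they were made. In the authors' deposited table SLC2A1 and SLC2A3 were iCLIP targets of HuR and HK2 was not, with 19.4% of entries called yes. All 3 were listed as 3′UTR targets of ELAVL1, as were 61.0% of entries with an answer. A further deposited column, of any HuR target, said yes for SLC2A3 and HK2 and for 11.6% of 5017 entries, and was blank for SLC2A1. The LOD score of HuR binding in the authors' deposited table for SLC2A3 was -4.81 at 4 h and -14.0 at 0 h. For HK2 the score in the authors' deposited table was -12.0 at 4 h and -5.37 at 0 h. The difference, 4 h less 0 h, was 9.18 for SLC2A3, with 94.0% of 5017 genes below it, and -6.66 for HK2, with 2.51% below it, where the median gene had 0.884. The scores of these genes therefore lay on opposite sides of the median change, the higher one in SLC2A3. These scores have no replicates or errors in the table, so the difference was not tested, and SLC2A1 has no score at either time. In a cell line other than Jurkat the scores in the authors' deposited table were -0.865 for SLC2A3, -1.08 for HK2 and -7.17 for SLC2A1, with the median gene at -4.39.

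The rest of glucose metabolism was followed in 11 lists with 183 genes, of which 121 were in the table. These were tested with limma at each hour against unactivated cells, with Benjamini-Hochberg adjustment over all 7485 entries and a threshold of 0.05. In total RNA 0 of the 121 rose and 2 fell at 1 h, 18 rose and 3 fell at 2 h, 19 rose and 8 fell at 3 h, and 22 rose and 13 fell at 4 h. Over all entries 0.788% rose and 0.147% fell at 1 h, 9.71% and 3.58% at 2 h, 18.9% and 10.9% at 3 h, and 21.4% and 14.5% at 4 h, so the lists had no larger share of calls than other genes at 3 and 4 h. With quantile normalisation 19 rose and 20 fell at 4 h in total RNA, 17 and 12 at 3 h and 11 and 5 at 2 h. Over all entries the same setting called 1310 higher and 1377 lower at 4 h. At 3 h it called 1039 and 1147 of all entries, and at 2 h 433 and 387.

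In labelled RNA 9 of the 121 rose and 2 fell at 1 h, 16 rose and 10 fell at 2 h, 17 rose and 22 fell at 3 h, and 9 rose and 34 fell at 4 h. Over all entries 4.2% rose and 2.06% fell at 1 h, 12.3% and 9.26% at 2 h, 13.8% and 11.4% at 3 h, and 13.7% and 13.8% at 4 h. At 4 h the falling share of the lists was thus 28.1%, and their median log2 change was -0.18, where the median entry had -0.01. Labelled RNA of unactivated cells spread more than the other groups, and on simulated data with that spread this pooled fit made too many false calls in labelled RNA at 4 h, the hour simulated, so the labelled counts may be too high. When each group had its own weight for spread, a setting added after seeing the data, 2 rose and 1 fell at 1 h, 11 rose and 8 fell at 2 h, 15 rose and 16 fell at 3 h, and 6 rose and 26 fell at 4 h. Over all entries this setting called 157 higher and 59 lower at 1 h and 652 and 453 at 2 h. At 3 h it called 871 and 670 of all entries, and at 4 h 782 and 760.

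Among the other transporters of the SLC2A family, SLC2A13, which carries myo-inositol, was the only one of 12 in the table. Its total RNA rose at 3 h (log2 change 0.38 ± 0.11, adjusted p = 0.0126 by limma) and had 27.8 ± 0.942 at 4 h, against 24.0 ± 2.96 at 0 h (log2 change 0.21 ± 0.11, adjusted p = 0.150). Of the other hexokinases, HK1 and ADPGK were measured. ADPGK, which uses ADP, rose to 66.3 ± 5.45 in total RNA at 4 h, against 55.2 ± 3.20 at 0 h (log2 change 0.26 ± 0.09, adjusted p = 0.0263 by limma, but 0.0703 after quantile normalisation). HK1, the housekeeping hexokinase, had 132 ± 2.84 at 4 h, against 108 ± 10.3 at 0 h (log2 change 0.29 ± 0.12, adjusted p = 0.0625 by limma), and passed when only the compared groups set the spread, with an adjusted p of 0.00703. In labelled RNA neither passed at any hour. Of the 3 hexokinases measured, HK2 was the one with a lower total level at 4 h.

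Of 13 glycolytic enzymes in the table, 2 rose and 1 fell in total RNA at 4 h, and 2 rose and 6 fell in labelled RNA. For this list and those below, 21.4% of all entries rose and 14.5% fell in total RNA at 4 h. In labelled RNA 13.7% of all entries rose and 13.8% fell. PKM, pyruvate kinase, rose to 1479 ± 85.4 in total RNA at 4 h, against 1066 ± 52.0 at 0 h (log2 change 0.47 ± 0.08, adjusted p = 0.000227 by limma), and by 0.78 ± 0.10 in labelled RNA. PFKP, the platelet-type phosphofructokinase, rose to 298 ± 14.7, against 204 ± 10.9 (log2 change 0.54 ± 0.09, adjusted p = 5.5e-05 by limma). LDHA, which makes lactate from pyruvate, fell to 347 ± 13.1 in labelled RNA at 4 h, against 633 ± 28.5 at 0 h (log2 change -0.87 ± 0.12, adjusted p = 1.5e-07 by limma). Its total RNA fell by 0.28 ± 0.10 on the log2 scale (adjusted p = 0.0329 by limma, but 0.0758 on the linear scale).

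Of 3 genes that set fructose 2,6-bisphosphate, the activator of phosphofructokinase, 2 rose in total RNA at 4 h. PFKFB3, which makes it, rose earlier, with 70.0 ± 9.50 at 3 h and 55.5 ± 2.29 at 4 h, against 42.1 ± 2.66 at 0 h (log2 change at 4 h 0.39 ± 0.11, adjusted p = 0.00699 by limma). C12orf5, which encodes TIGAR, the phosphatase that removes it, rose to 47.1 ± 2.93 in total RNA, against 35.5 ± 1.21 (log2 change 0.40 ± 0.11, adjusted p = 0.00746 by limma). Its labelled RNA fell by 0.54 ± 0.21 on the log2 scale at 4 h (adjusted p = 0.0495 by limma), and this call was lost in 4 of the other settings, with adjusted p up to 0.114.

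Other branches use glucose 6-phosphate for pentoses, glycogen and hexosamines. None of 6 pentose phosphate genes passed in total RNA at 4 h, and in labelled RNA 3 fell, which were PGD, TKT and RPIA, named after their values were seen. For lactate and pyruvate handling 0 of 14 genes passed in total RNA at 4 h and 5 fell in labelled RNA, among them the lactate transporter SLC16A1 at -0.54 ± 0.11 (adjusted p = 0.000175 by limma), likewise named afterwards. Of 14 genes for glycogen and hexosamine, 4 rose and 2 fell in total RNA at 4 h. GNPNAT1, of hexosamine synthesis, rose to 231 ± 6.93, against 170 ± 7.32 (log2 change 0.44 ± 0.08, adjusted p = 0.000128 by limma). GYS1, muscle glycogen synthase, fell to 17.0 ± 3.24, against 23.2 ± 1.94 (log2 change -0.43 ± 0.14, adjusted p = 0.0260 by limma). The O-GlcNAc hydrolase gene MGEA5 and the branching enzyme gene GBE1 rose by 0.41 ± 0.08 and 0.38 ± 0.10 in total RNA.

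Of 20 regulators of uptake, 4 rose and 3 fell in total RNA at 4 h, and 1 rose and 4 fell in labelled RNA. TXNIP, an arrestin-domain protein that draws GLUT1 off the cell surface, fell to 20.4 ± 1.39 in total RNA at 4 h, against 33.2 ± 3.89 at 0 h (log2 change -0.68 ± 0.14, adjusted p = 0.000768 by limma). Its lowest total level was at 3 h, with 13.6 ± 1.71, and its labelled level had fallen to 35.6 ± 10.4 by 2 h, against 127 ± 46.2 at 0 h (log2 change -1.80 ± 0.22, adjusted p = 1.2e-08 by limma). Its relative ARRDC4 fell to 10.9 ± 2.01 in total RNA at 4 h, against 20.4 ± 1.35 (log2 change -0.85 ± 0.18, adjusted p = 0.00112 by limma). RICTOR, a subunit of mTORC2, rose to 163 ± 12.9, against 102 ± 4.94 (log2 change 0.68 ± 0.09, adjusted p = 4.4e-06 by limma). PRKAB1, a subunit of the energy sensor AMPK, fell by 0.53 ± 0.13 on the log2 scale.

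Of 16 transcription factors and their regulators, 1 rose and 3 fell in total RNA at 4 h. MYC fell to 68.1 ± 10.9 in total RNA, against 243 ± 5.94 (log2 change -1.82 ± 0.11, adjusted p = 1.7e-10 by limma), and to 140 ± 23.7 in labelled RNA, against 636 ± 125 (log2 change -2.18 ± 0.15, adjusted p = 2.0e-15 by limma). The mean of labelled MYC was lowest at 3 h, with 124 ± 3.0, but its samples there may overlap those at 4 h. Labelled SLC2A1 was lowest at 3 h, labelled HK2 at 4 h and labelled SLC2A3 at 0 h, and no link to MYC was tested. MXD1, which competes with MYC for MAX, rose to 25.4 ± 2.91 in total RNA, against 10.1 ± 0.700 (log2 change 1.24 ± 0.13, adjusted p = 3.4e-07 by limma). MXI1, of the same family, fell by 0.45 ± 0.10 on the log2 scale and EGLN1, an oxygen sensor that marks HIF-1 for destruction, fell by 0.33 ± 0.10. HIF1A had 232 ± 18.0, against 261 ± 8.19 (log2 change -0.17 ± 0.08, adjusted p = 0.0941 by limma), and passed after quantile normalisation only, with an adjusted p of 0.0178.

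Of 20 textbook MYC targets for nutrient uptake and biosynthesis, 3 rose and 2 fell in total RNA at 4 h, and 2 rose and 9 fell in labelled RNA. In total RNA these are 15% and 10%, where 21.4% and 14.5% of all entries rose and fell. In labelled RNA they are 10% and 45%, against 13.7% and 13.8% of all entries. The amino acid transporter gene SLC7A5 rose to 78.5 ± 12.7 in total RNA, against 32.7 ± 2.81 (log2 change 1.24 ± 0.17, adjusted p = 1.9e-05 by limma). SLC3A2, the partner of SLC7A5, rose by 0.40 ± 0.10 on the log2 scale. CDK4 fell to 84.4 ± 3.17, against 126 ± 6.93 (log2 change -0.57 ± 0.10, adjusted p = 0.000238 by limma).

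Of 12 textbook hypoxia targets other than the 3 genes, 5 rose and 2 fell in total RNA at 4 h, and 2 rose and 3 fell in labelled RNA. In labelled RNA NDRG1 rose by 0.94 ± 0.28, while VEGFA (-0.38 ± 0.28) and the histone demethylase gene KDM3A (0.23 ± 0.14) did not pass. In total RNA VEGFA rose to 9.31 ± 1.09, against 4.40 ± 0.678 (log2 change 0.93 ± 0.16, adjusted p = 0.000146 by limma). NDRG1 rose by 0.83 ± 0.17 and KDM3A by 0.51 ± 0.11. HILPDA, a lipid droplet protein, fell by 0.61 ± 0.18 at 4 h and was 1 of the 2 listed genes that had already fallen at 1 h, the other being the arrestin-domain gene ARRDC3 at -1.39 ± 0.14, named after its value was seen.

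**Figure D5:**
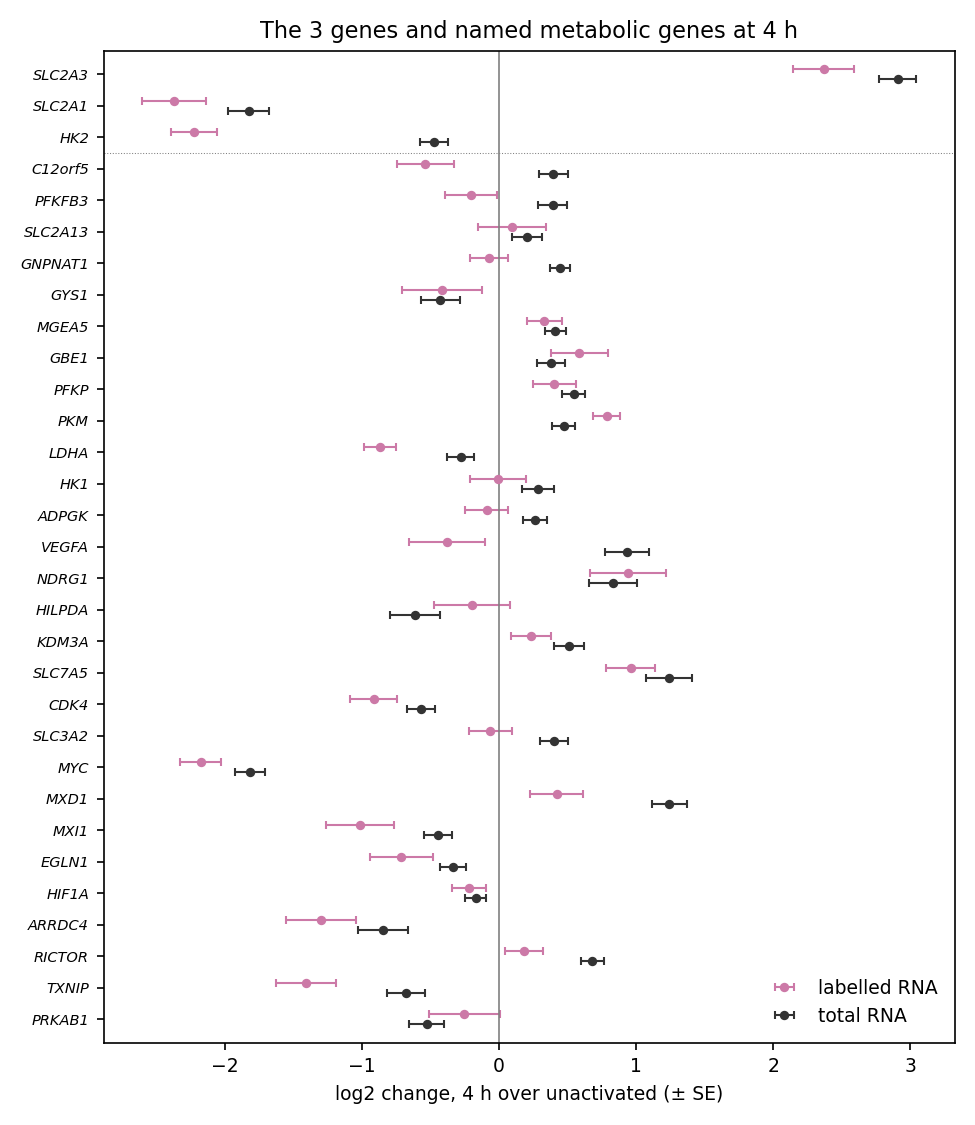
The log2 change at 4 h over unactivated cells (± SE, limma's pooled and moderated spread) is plotted for labelled and total RNA. SLC2A3, SLC2A1 and HK2 are above the dotted line and named genes of the lists below it. SLC2A3 stands at 2.37 in labelled and 2.91 in total RNA, SLC2A1 at -2.37 and -1.83, and of the list genes shown MYC, at -2.18 and -1.82, lies nearest to SLC2A1.

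The genes with the most similar pattern were found by Pearson correlation of log2 values over the 10 group means, centred within each kind of RNA. These 10 points share libraries and 5 times, so the r values are a description. For SLC2A3 they were NDEL1 (0.982), SLAIN2 (0.979) and RNF6 (0.974), all with much smaller changes: NDEL1 had 89.3 in total RNA at 4 h, against 58.8 at 0 h. For SLC2A1 they were BDH1 (0.993), MTMR4 (0.991) and MMAB (0.988), and MTMR4 had 94.4 in total RNA at 4 h, against 228 at 0 h. For HK2 they were SYNCRIP (0.994), IPO5 (0.989) and DHX33 (0.982). Among the 3 genes r was 0.837 for HK2 with SLC2A1, -0.532 for HK2 with SLC2A3 and -0.718 for SLC2A3 with SLC2A1.

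As a check of the label, 9 of 14 T cell markers were in the table, CD3D, CD3G and LCK among them, while CD2, CD3E, CD5, CD7 and LAT were not. The summed total level of those measured ran from 2039 at 0 h to 2806 at 4 h. At 4 h 6 were called higher and 1 lower, where 21.4% of all entries were higher and 14.5% lower. None of 6 B cell, 6 erythroid and 6 fibroblast markers was listed, and of 6 myeloid markers AIF1 alone was, at 85.2 to 99.8. Their part in the results was not tested. Depth is known for total RNA at 1 h alone, where the libraries came out at 1.11e+07 and 1.12e+07 reads on a per-million reading of the scale.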

How the data were processed

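The members and gene lists were chosen with earlier results of these data known. Reads were aligned with TopHat2 and counted with HTSeq, and edgeR was used, on hg19, per the submitters' processing notes (versions not given). Per the file headers, the authors' table holds a mean and an SD per group of a normalised signal, with no value for single samples, a deposited RPKM column, decay rates that the authors put on a natural log scale, and deposited T and LOD scores. Labelled RNA was separated with biotin-HPDP and streptavidin beads, and libraries used ScriptSeq after Ribo-Zero, per the labels' protocols. No source used here gives the length of labelling.

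The test had been planned for single samples or for summaries. limma 3.58.1 (R 4.3.3) was run from the means and SDs on log2(value + 1), with the SD converted by its first-order approximation, 9 residual degrees of freedom, trend and robust moderation, and Benjamini-Hochberg adjustment over 7485 entries at 0.05. The fit was tested on simulated data, where with the wider spread of unactivated labelled samples it made more false calls in labelled RNA at 4 h than its threshold allows, and a group-weighted spread was added as an alternative. Named genes were the 3 members, all measured transporters and hexokinases, up to 4 genes per other list with the largest called change in total RNA at 4 h, MYC, HIF1A and TXNIP, and the 3 genes most like each member. A gene that this rule names is not reported here. At 1 h both sample values follow from mean and SD. For 3166 of 3166 total RNA genes under 50 they were whole reads within 0.02 of a read. Intervals reflect the spread between replicates only, moderated toward other genes in the case of the SEs. Sequence words were searched in GENCODE v29 transcripts and RefSeq promoter windows. Python 3.11.15 did the rest. The alternatives tried were other pseudocounts, median centring, quantile normalisation, a filter at a mean of 5, other spreads, the linear scale and leaving samples out.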

Additional observations from a re-analysis of the deposited data

Results flagged for a closer look

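Only the 3 genes and the named pathway genes were looked at here. In 4 cases every labelled sample moved one way and every total RNA sample the other, relative to unactivated cells. The difference itself was not tested. Among all entries, total higher with labelled lower and no overlap held for 0.281% at 2 h and 0.107% at 3 h. That share was not counted at 4 h. For SLC2A1 at 2 h the log2 change was -1.59 in labelled and 0.43 in total RNA, a difference of -2.02. For HK2 it was -0.50 in labelled and 0.42 in total RNA at 2 h, a difference of -0.92, and -1.85 and 0.42 at 3 h, a difference of -2.27. For C12orf5 at 4 h it was -0.54 in labelled and 0.40 in total RNA, a difference of -0.93, and its labelled call was lost in some other settings.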

How the results depend on the processing

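Of 144 values for the 3 genes under other settings, 137 lay within 1 SD of the value reported, and 1, for labelled SLC2A1 at 1 h, changed sign. The SD was the larger log2 SD of the compared groups, which is wide for labelled SLC2A3 (0.666). The leave-one-out bounds among these values follow from mean and SD. They stay within 1 SD by construction, so the count overstates how stable the values are. With a pseudocount of 5 the 4 h log2 change was 2.27 for total SLC2A3 and -2.10 for labelled HK2. Total SLC2A3 also moved by more than 1 SD with that pseudocount at 1, 2 and 3 h, to 0.69, 1.42 and 1.82. Total HK2 at 2 h moved from 0.42 to 0.35 with median centring and 0.31 with quantile normalisation. The median entry had 0.07 in total RNA at 2 h. No single sample is given, so leaving 1 out was bounded from mean and SD. The log2 change at 4 h would then lie between 2.79 and 3.04 for total SLC2A3, 2.03 and 2.81 for labelled SLC2A3, -2.05 and -1.63 for total SLC2A1, -2.67 and -2.0 for labelled SLC2A1, -0.56 and -0.39 for total HK2, and -2.30 and -2.15 for labelled HK2. Counts of metabolic genes called were 2, 21, 27 and 35 in total RNA and 11, 26, 39 and 43 in labelled RNA at 1, 2, 3 and 4 h. With the spread of the compared groups only they were 4 and 35 in total RNA at 1 and 2 h, and 4 and 17 in labelled RNA. The labelled count at 1 h was 7 after quantile normalisation and 3 with group-weighted spread (19, 31 and 32 at 2, 3 and 4 h), a setting chosen after seeing that labelled RNA of unactivated cells spread more. Of the calls in the metabolic lists, 62.9% were higher in total RNA at 4 h, and 48.7% after quantile normalisation. At 2 h in total RNA the share was 85.7%, and 70.6% after median centring and 68.8% after quantile normalisation. At 3 h it was 70.4%, against 58.6% after quantile normalisation, and in labelled RNA at 1 h 81.8%, against 57.1%. The calls over all entries shifted the same way. In total RNA at 4 h they were 1605 higher and 1087 lower, and 1310 and 1377 after quantile normalisation. At 3 h they were 1416 and 813, against 1039 and 1147, and at 2 h 727 and 268, against 433 and 387. The cause was not tested. Of 464 values of the 29 named pathway genes at 4 h, 446 kept direction and call, 15 lost the call, 3 gained it and 0 changed direction. PFKP, MGEA5 and GBE1 lost their labelled call with group-weighted spread (adjusted p 0.0805, 0.0958 and 0.0745 by limma). No paired analysis was possible because the table gives group means and SDs, with no value of a single sample to pair by replicate letter. For the same reason counts without 1 replicate were not run.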
